A study of Homo sapiens with 16 samples.

Results

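The 5 genes described here encode actins or proteins that act on actin filaments: ACTB, ACTG1, POTEF, ROCK2 and TMSB10. They were chosen from differences between HuR and IgG immunoprecipitates in these same data, and every probe annotated to them was taken. The array held 10 such probes among 47231, and 5 of its 20046 named genes. ACTB had 3 probes, ACTG1, POTEF and ROCK2 had 2 each, and TMSB10 had 1.

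Antibody-bound RNA was taken by immunoprecipitation (IP) out of lysates of U2OS, a line of human osteosarcoma cells, synchronized in the cell cycle with nocodazole or thymidine. The phase in which each sample was taken is not given in the labels. In all groups the cells had received an siRNA for 48 hours. The siRNA was directed against MIR100HG, a long noncoding RNA, or was a control. HuR IPs after MIR100HG siRNA, HuR IPs after control siRNA, IgG IPs after MIR100HG siRNA and IgG IPs after control siRNA had 4 biological replicates each, on 16 arrays in all. The protocol in the labels spells the siRNA target mIR-110HG, while the titles name MIR100HG. The series asks whether MIR100HG changes the association of HuR with its target mRNAs.

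HuR, encoded by ELAVL1, is an RNA-binding protein that attaches to U-rich and AU-rich stretches of mRNA, often in 3′ untranslated regions, and is known for raising the stability or translation of many of its targets. ACTB mRNA has been described as one of them. ACTB and ACTG1 encode the cytoplasmic actins, beta and gamma, from which the filaments of nonmuscle cells are built. POTEF is a primate gene whose protein ends in a domain nearly identical to beta-actin, so a POTEF probe may also take up ACTB mRNA, and its signal is reported as uncertain in origin. ROCK2 encodes a kinase that promotes contraction of actin filaments by myosin. TMSB10 encodes a thymosin that binds actin monomers.

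Most of the array was near background. A probe counted as detected where its detection p, which compares it with the negative controls of the same array, was under 0.01. The 4 arrays of HuR IPs after MIR100HG siRNA had 563, 2592, 824 and 761 detected probes, HuR IPs after control siRNA had 752 to 1407, IgG IPs after MIR100HG siRNA had 553 to 1015 and IgG IPs after control siRNA had 829 to 1094. Replicate 2 of the HuR IPs after MIR100HG siRNA stood apart, with a highest intensity of 6370 against 314 to 334 on the other 3 arrays of its group, so results that rest on it are given with and without it. Of 10 listed mesenchymal and osteoblast markers 1, CDH2, could be tested, and no probe of the 5 epithelial, 5 blood or 3 endothelial markers was detected on any array. The probes of MIR100HG and of ELAVL1 were detected on none of the 16 arrays, so neither the depletion nor the antibody could be checked with them. The p-values below measure the spread between these arrays, whose small number and dim signal limit the precision. Each array held RNA of a bulk lysate, so fewer cells and less RNA per cell cannot be told apart, and recovery by the antibody cannot be told apart from the level of the mRNA in the lysate.

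ACTB mRNA was far more abundant in HuR than in IgG IPs under both siRNAs by 2 of its 3 probes. Probe ILMN_2038777 had intensities of 156, 2756, 139 and 69 in HuR IPs after MIR100HG siRNA and of 441, 709, 960 and 337 in HuR IPs after control siRNA, against 53, 52, 54 and 54 in IgG IPs after MIR100HG siRNA and 87, 66, 56 and 71 in IgG IPs after control siRNA (replicates 1 to 4). Every HuR array lay above every IgG array of the same siRNA, and in the HuR IPs after MIR100HG siRNA replicate 2 was the highest and replicate 4 the lowest. The group means were 780 ± 1318, 612 ± 280, 53.3 ± 0.957 and 70.0 ± 12.9 (SD, n = 4 each), in the same order. The medians were 147.5, 575, 53.5 and 68.5 in that order, so that by median the HuR IPs after MIR100HG siRNA lay under those after control siRNA, while by mean they lay above them.

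Probe ILMN_2152131 of ACTB showed the same arrangement. It read 180, 4382, 184 and 61 in HuR IPs after MIR100HG siRNA and 621, 992, 1420 and 456 in HuR IPs after control siRNA. It read 49, 43, 47 and 49 in IgG IPs after MIR100HG siRNA and 73, 63, 55 and 53 in IgG IPs after control siRNA. Both HuR groups lay above their IgG groups without overlap, and the 4 IgG arrays after MIR100HG siRNA lay below the 4 after control siRNA. The third probe, ILMN_1777296, was dim: it read 50, 54, 47 and 51 in HuR IPs after MIR100HG siRNA and 64, 75, 96 and 58 in HuR IPs after control siRNA, against 38 to 44 in IgG IPs after MIR100HG siRNA and 42 to 49 in IgG IPs after control siRNA. It was detected on the 4 arrays of HuR IPs after control siRNA and on no other, so it passed the detection filter only through the group in which it was high.

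POTEF and ROCK2 each had 1 probe that was bright in HuR IPs and 1 that was not. The POTEF probe ILMN_3241758 read 104, 1817, 96 and 49 in HuR IPs after MIR100HG siRNA and 244, 344, 482 and 181 in HuR IPs after control siRNA, against 46, 44, 40 and 43 in IgG IPs after MIR100HG siRNA and 55, 45, 48 and 46 in IgG IPs after control siRNA. It was detected on no IgG array, and HuR replicate 4 after MIR100HG siRNA was not detected either. The ROCK2 probe ILMN_2058337 read 74, 1164, 77 and 54 in HuR IPs after MIR100HG siRNA and 169, 219, 224 and 146 in HuR IPs after control siRNA. In IgG IPs it read 46, 40, 46 and 51 after MIR100HG siRNA and 74, 55, 58 and 56 after control siRNA. Its HuR arrays lay above the IgG arrays of the same siRNA, by 3 intensity units between the closest pair after MIR100HG siRNA and by 72 after control siRNA. The second ROCK2 probe, ILMN_1659099, read 60, 59, 61 and 61 in HuR IPs after MIR100HG siRNA and 50 to 54 in HuR IPs after control siRNA, against 48 to 55 in IgG IPs after MIR100HG siRNA and 51 to 55 in IgG IPs after control siRNA. The first of these groups lay above the other 3, as did its median intensity over all probes, which was 48 to 50 per array against 46 to 47, 42 to 45 and 45 to 47. The second POTEF probe, ILMN_1735698, was detected on no array and read 41 to 54 throughout.

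ACTG1 and TMSB10 did not show the HuR excess of ACTB. The ACTG1 probe ILMN_2053178 read 46, 163, 44 and 47 in HuR IPs after MIR100HG siRNA and 88, 96, 113 and 54 in HuR IPs after control siRNA, against 46, 43, 50 and 53 in IgG IPs after MIR100HG siRNA and 75, 59, 48 and 63 in IgG IPs after control siRNA. The HuR and IgG arrays overlapped under both siRNAs, and replicate 2 was the only detected array of the HuR IPs after MIR100HG siRNA. The other ACTG1 probe, ILMN_1704961, was detected on no array. TMSB10 (ILMN_1812392) read 54, 88, 53 and 50 in HuR IPs after MIR100HG siRNA and 56, 67, 68 and 54 in HuR IPs after control siRNA, against 55, 47, 50 and 59 in IgG IPs after MIR100HG siRNA and 88, 73, 70 and 67 in IgG IPs after control siRNA. Its medians were 53.5 and 61.5 in HuR IPs after MIR100HG and control siRNA, and 52.5 and 71.5 in IgG IPs after MIR100HG and control siRNA. The highest was that of IgG IPs after control siRNA, and HuR and IgG arrays overlapped under both siRNAs.

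**Figure D1:**
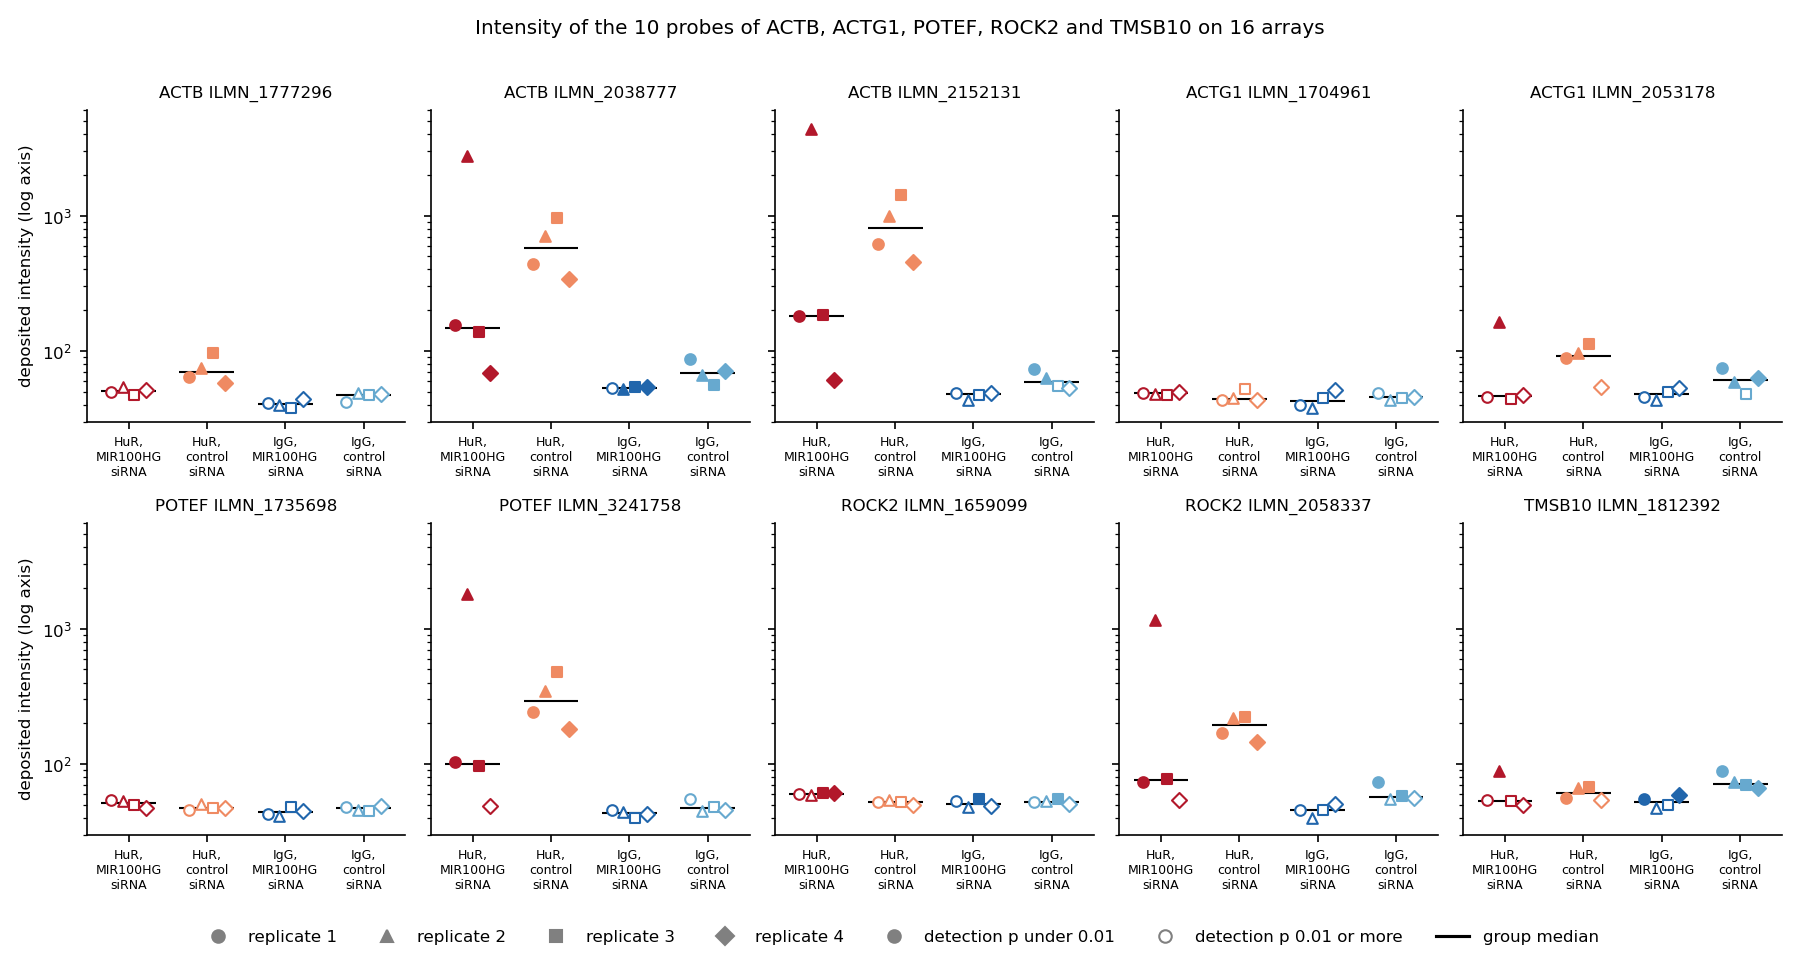
Deposited intensity of the 10 probes of ACTB, ACTG1, POTEF, ROCK2 and TMSB10 on a log axis, by group. Each symbol is 1 array, its shape gives the replicate number, filled symbols have a detection p under 0.01 and lines are group medians; the triangle of HuR IPs after MIR100HG siRNA (replicate 2) is the highest of its group in 6 of the 10 panels by a wide margin, at 2756 and 4382 for the bright ACTB probes.

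For comparisons the intensities were background corrected, quantile normalized and put on the log2 scale, and 8 of the 10 probes passed a filter asking for detection on at least 4 of the 16 arrays. The HuR against IgG differences chose the members, so they are given as a description, without a test. With MIR100HG siRNA the difference for ACTB probe ILMN_2038777 was 3.20 ± 0.35 (SE), and after control siRNA 2.84 ± 0.35. ILMN_2152131 was at least 8.96-fold higher after MIR100HG siRNA, and differed by 4.06 ± 0.65 on the log2 scale after control siRNA. Such bounds are used where no array of the dimmer group gave a detection p under 0.05; its values were raised to the lowest detected signal of the same array. They hold on the normalized scale only.

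The POTEF probe ILMN_3241758 was at least 3.74-fold higher in HuR IPs after MIR100HG siRNA and differed by 3.35 ± 0.52 on the log2 scale after control siRNA. ROCK2 probe ILMN_2058337 was at least 2.59-fold higher after MIR100HG siRNA, and its log2 difference after control siRNA was 1.93 ± 0.42. ACTB probe ILMN_1777296 was undetected in both groups after MIR100HG siRNA and was at least 1.35-fold higher in HuR IPs after control siRNA. ACTG1 and TMSB10 depended on the scaling. ROCK2 probe ILMN_1659099 gave 0.05 ± 0.17 after MIR100HG siRNA and -0.08 ± 0.17 after control siRNA, and ACTG1 gave 0.04 ± 0.34 and 0.15 ± 0.34. Without scaling ACTG1 gave 0.55 ± 0.56 after MIR100HG siRNA and 0.83 ± 0.56 after control siRNA, and when HuR and IgG arrays were quantile normalized separately it gave 0.14 ± 0.35 and 1.01 ± 0.35. TMSB10 gave -0.52 ± 0.26 after MIR100HG siRNA and -1.49 ± 0.26 after control siRNA. Without quantile normalization the TMSB10 difference after MIR100HG siRNA turned to 0.11 and that after control siRNA was -0.52, while the median of all probes stood at 0.28 after MIR100HG siRNA and 0.08 after control siRNA.

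Over the 8 probes the median log2 difference was 0.98 after MIR100HG siRNA and 1.42 after control siRNA, beside 0.08 and -0.04 over all 1438 probes tested. With MIR100HG siRNA 6 of the 8 had every HuR array above every IgG array in deposited intensity, where 56.1% of all probes did. With control siRNA 5 of the 8 did, where 25% of all probes did. Nothing is read from these counts, since these contrasts chose the members. The size after MIR100HG siRNA rested in part on replicate 2. Without that array and without scaling between arrays, the difference in HuR against IgG IPs after MIR100HG siRNA was 1.65 for ACTB probe ILMN_2038777, 2.08 for ILMN_2152131, 1.22 for POTEF and 0.75 for ROCK2 probe ILMN_2058337, against 2.94, 3.50, 2.56 and 2.02 with it.

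**Figure D2:**
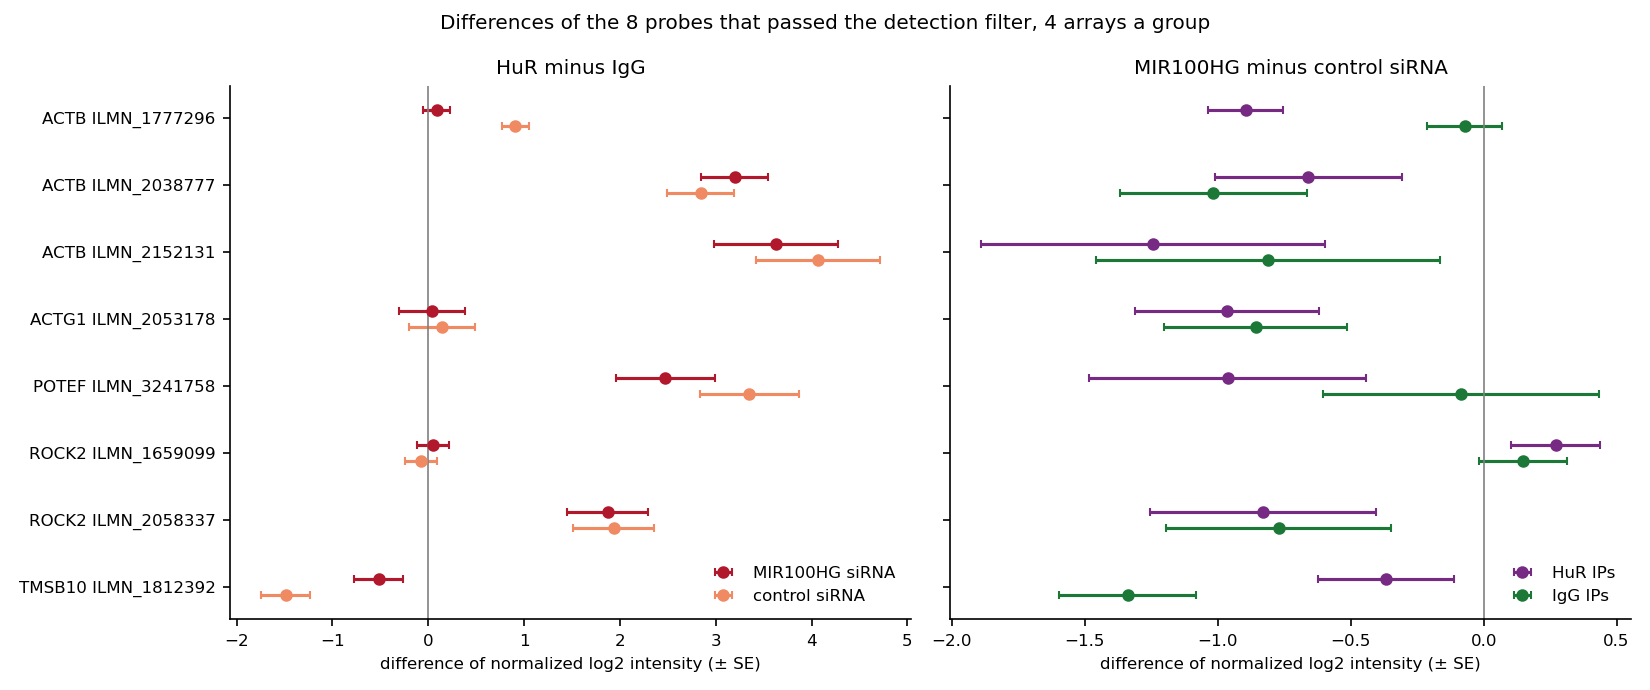
Differences of normalized log2 intensity (horizontal axis) for the 8 tested probes, with SE bars and 4 arrays a group: HuR minus IgG on the left, MIR100HG minus control siRNA on the right. The bright probes of ACTB, POTEF and ROCK2 lie between 1.87 and 4.06 on the left under both siRNAs, and 7 of the 8 probes lie below 0 in HuR IPs on the right.

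Whether the MIR100HG siRNA altered how much of these mRNAs was found in HuR IPs was tested with limma. That comparison did not choose the members, but the same HuR arrays after control siRNA had helped to choose them. Its p-values are conditional on that choice. With all 16 arrays, 7 of the 8 probes had lower means in HuR IPs after MIR100HG than after control siRNA, by a median log2 difference of -0.86 beside -0.02 over all probes. One probe passed an adjusted p of 0.05, and 2 had an unadjusted p under 0.05. Among all 1438 probes 10% passed, 9.87% as lower, and 27.7% had an unadjusted p under 0.05. The probe that passed was ILMN_1777296 of ACTB, at least 1.34-fold lower after MIR100HG siRNA (adjusted p = 0.00128); it had entered the test only because the 4 HuR arrays after control siRNA detected it, so it had to be lower elsewhere. The bright ACTB probes differed by -0.66 ± 0.35 (ILMN_2038777, adjusted p = 0.227) and -1.24 ± 0.65 (ILMN_2152131, adjusted p = 0.216). POTEF differed by -0.96 ± 0.52 (adjusted p = 0.236), ROCK2 probe ILMN_2058337 by -0.83 ± 0.42 (adjusted p = 0.211) and ACTG1 by -0.96 ± 0.34 (adjusted p = 0.0864). TMSB10 gave -0.37 ± 0.26 (adjusted p = 0.378) and ROCK2 probe ILMN_1659099 0.27 ± 0.17 (adjusted p = 0.303).

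For the bright probes these values rested most on replicate 4 of the HuR IPs after MIR100HG siRNA, their lowest array. Without it the differences shrank to -0.23 for ACTB probe ILMN_2038777 (adjusted p = 0.719), -0.24 for ILMN_2152131 (adjusted p = 0.718), -0.15 for POTEF (adjusted p = 0.748) and -0.24 for ROCK2 probe ILMN_2058337 (adjusted p = 0.696).

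In deposited intensity another array stood out. Replicate 2 of the HuR IPs after MIR100HG siRNA was 22.7 and 30.9 times the mean of the other 3 arrays of its group for the bright ACTB probes, 21.9 times for POTEF, 17 times for ROCK2 probe ILMN_2058337, 3.57 times for ACTG1 and 1.68 times for TMSB10, while its median intensity over all probes, 50, equalled that of replicate 1. In deposited intensity, the other 3 arrays lay below all 4 arrays of the HuR IPs after control siRNA for 6 of the 8 probes, as did 27.1% of all probes, and above them for 1, ROCK2 probe ILMN_1659099, as did 21.3%. With all 4 arrays 1 probe lay below (0.556% of all probes), 1 above (18.7%) and 6 overlapped. Their mean was 121 ± 46.1 for ACTB probe ILMN_2038777 (SD, n = 3), against 612 ± 280 in HuR IPs after control siRNA (SD, n = 4). POTEF had a mean of 83 ± 29.7 against 313 ± 131, and ROCK2 probe ILMN_2058337 one of 68.3 ± 12.5 against 190 ± 38.2.

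With both changes together, replicate 2 left out and no scaling between arrays, all 8 probes passed the test, 7 as lower after MIR100HG siRNA and ROCK2 probe ILMN_1659099 as higher, where 38.3% of the 1181 probes then tested passed, 34.6% as lower and 3.64% as higher. ACTB probe ILMN_2038777 was lower by a log2 difference of -2.80 ± 0.39 (adjusted p = 1.31e-05) and ILMN_2152131 by -3.19 ± 0.47 (adjusted p = 2.54e-05). POTEF differed by -2.59 ± 0.36 (adjusted p = 1.46e-05), ROCK2 probe ILMN_2058337 by -2.25 ± 0.24 (adjusted p = 1.4e-06) and ACTG1 by -1.47 ± 0.31 (adjusted p = 9.18e-04). TMSB10 differed by -0.53 ± 0.18 (adjusted p = 0.0272), ACTB probe ILMN_1777296 by -1.03 ± 0.20 and ROCK2 probe ILMN_1659099 by 0.27 ± 0.10 (adjusted p = 0.0463). The HuR arrays after control siRNA had helped to choose the members, and high values there favour a lower value after MIR100HG siRNA. Replicate 2 was left out because it stood apart in these same data. The p-values are conditional on both choices. ILMN_1777296 and, without replicate 2, ACTG1 were detected on arrays of control siRNA alone, so their lower values after MIR100HG siRNA were fixed at least in part by the filter. ROCK2 probe ILMN_1659099 was detected on 2 HuR arrays after MIR100HG siRNA and on 0 after control siRNA, so the filter favoured its higher value. Its call came without scaling, where the median intensity over all probes was also higher in the HuR IPs after MIR100HG siRNA. With median centring 7 probes passed, all as lower, and 35.2% of all probes passed as lower. With quantile normalization and without replicate 2, 3 probes passed, all as lower, among 24.7% of all probes: ACTB probe ILMN_1777296 at -0.68, ACTG1 at -0.91 (adjusted p = 0.00886) and ROCK2 probe ILMN_2058337 at -0.84 (adjusted p = 0.0384), while ACTB probe ILMN_2038777 stood at -0.68 and POTEF at -1.03, close to their values with replicate 2. Leaving out replicate 1, 2 or 3 of the HuR IPs after control siRNA left 0 probes called, as ILMN_1777296 then missed the filter on detection. Without replicate 4 of that group the called probe was ACTG1, at -1.26 (adjusted p = 0.0308). The number of detected probes moved with these values, at 2592 on replicate 2 against 563 to 824 on the other 3 arrays, and its part in these differences was not tested.

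**Figure D3:**
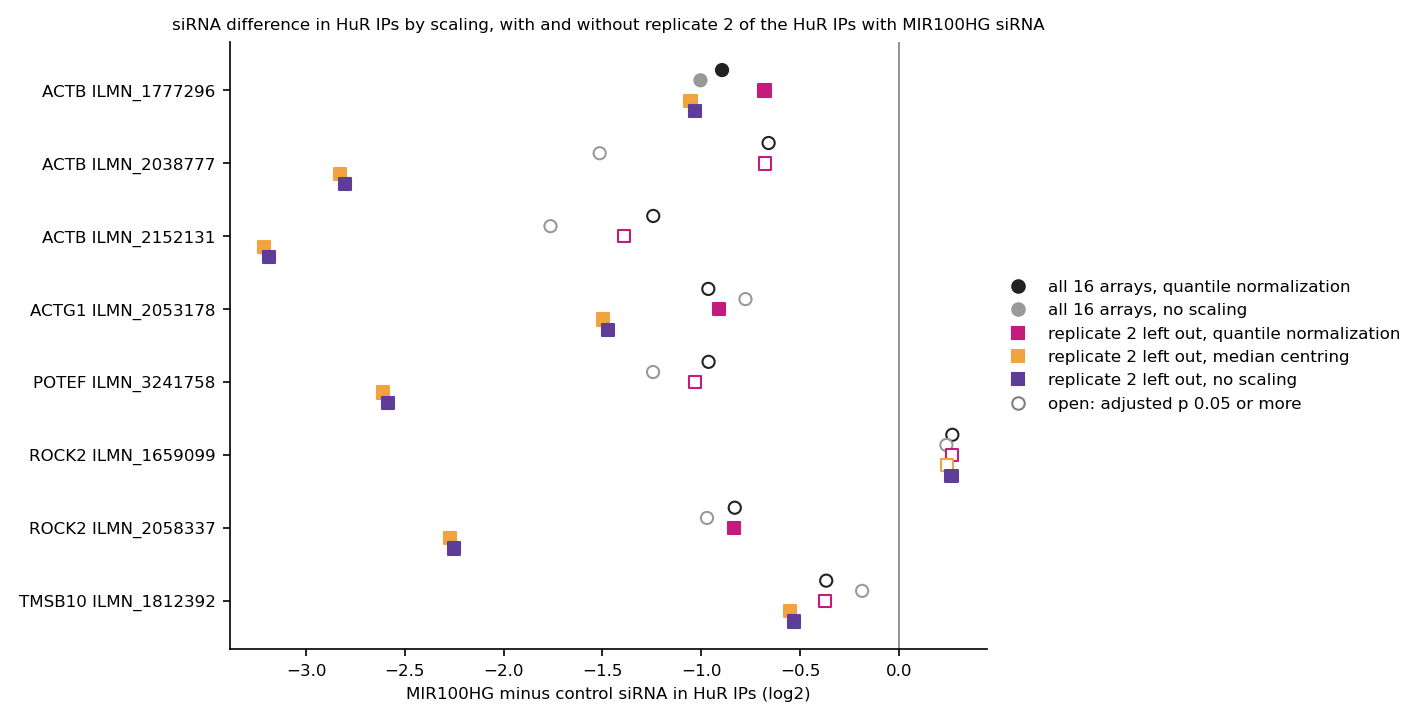
MIR100HG minus control siRNA in HuR IPs, in log2 units (horizontal axis), for the 8 tested probes under 5 treatments of the data; circles use all 16 arrays, squares leave out replicate 2 of the HuR IPs after MIR100HG siRNA, and filled symbols have an adjusted p under 0.05. Without replicate 2 and without scaling, the bright probes of ACTB, POTEF and ROCK2 lie between -3.19 and -2.25, and with quantile normalization of all arrays between -1.24 and -0.66.

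In IgG IPs TMSB10 was the member that passed the test of the siRNA. The IgG arrays after control siRNA had helped to choose the members, and TMSB10 had its highest median there. That choice favours a lower value after MIR100HG siRNA, so the p-value is conditional on it. TMSB10 fell to 52.8 ± 5.32 after MIR100HG siRNA, against 74.5 ± 9.33 after control siRNA (SD, n = 4 each), a log2 difference of -1.34 ± 0.26 (limma adjusted p = 0.00388), with all 4 arrays below all 4. It was 1 probe of the 8, beside 5.91% of all probes, 5.42% as lower, and 3 of the 8 had an unadjusted p under 0.05, as did 16.8% of all probes. The median over the 8 was -0.79, beside -0.02 over all probes. ACTB probe ILMN_2038777 differed by -1.02 ± 0.35 (adjusted p = 0.111) and ACTG1 by -0.86 ± 0.34 (adjusted p = 0.195). ILMN_2152131 of ACTB and ILMN_2058337 of ROCK2 had a detection p under 0.05 on no IgG array after MIR100HG siRNA, so their differences are bounds of at least 1.27-fold lower (adjusted p = 0.636) and at least 1.21-fold lower (adjusted p = 0.4). POTEF gave -0.09 ± 0.52, ACTB probe ILMN_1777296 -0.07 ± 0.14 and ROCK2 probe ILMN_1659099 0.15 ± 0.17. For 4 of the 8 probes every array after MIR100HG siRNA was below every array after control siRNA in deposited intensity, where 19.7% of all probes were, and the median intensity of the arrays was itself lower after MIR100HG siRNA (42 to 45 against 45 to 47). The call on TMSB10 was lost with median centring (-0.81, adjusted p = 0.938) and without scaling (-0.82, adjusted p = 0.897) of all 16 arrays, where limma called 0 of all probes and 74 and 78 had an unadjusted p under 0.05. It held under both when replicate 2 of the HuR IPs after MIR100HG siRNA was left out (adjusted p = 0.00766 and 0.00725), where 8.3% and 8.47% of all probes were called lower. ACTB probe ILMN_2038777 passed as well without replicate 4 of the HuR IPs after MIR100HG siRNA (-1.05, adjusted p = 0.0187), and it and ACTG1 passed without replicate 3 of the IgG IPs after control siRNA (-1.36, adjusted p = 0.0185, and -1.20, adjusted p = 0.0376).

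The change of the HuR enrichment with the siRNA, which is the difference between the HuR against IgG differences, is the quantity the series title asks about. The members were chosen from the 2 enrichments that enter it. With all 16 arrays none of the 8 probes passed limma's test (0.348% of all probes did), and 2 had an unadjusted p under 0.05, as did 12.9% of all probes. The HuR minus IgG difference after MIR100HG siRNA, less that after control siRNA, was 0.36 ± 0.50 for ACTB probe ILMN_2038777 (adjusted p = 0.777), a sign that turned to -0.91 without scaling and -0.95 with median centring. It was -0.43 ± 0.91 for ILMN_2152131 (adjusted p = 0.875), -0.82 ± 0.20 for ILMN_1777296 (adjusted p = 0.0777), -0.88 ± 0.73 for POTEF (adjusted p = 0.613) and -0.06 ± 0.60 for ROCK2 probe ILMN_2058337 (adjusted p = 0.978). ACTG1 gave -0.11 ± 0.49, ROCK2 probe ILMN_1659099 0.12 ± 0.24 and TMSB10 0.97 ± 0.36 (adjusted p = 0.266).

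Without replicate 2 of the HuR IPs after MIR100HG siRNA and without scaling, 5 of the 8 probes passed, all as a smaller enrichment after MIR100HG siRNA, where 21.5% of all probes were lower. These were ACTB probes ILMN_2038777 (-2.20 ± 0.53, adjusted p = 0.00482), ILMN_2152131 (-2.66 ± 0.64, adjusted p = 0.00507) and ILMN_1777296 (-0.96 ± 0.27), POTEF (-2.49 ± 0.49, adjusted p = 0.00116) and ROCK2 probe ILMN_2058337 (-1.71 ± 0.32, adjusted p = 8.49e-04). ACTG1 gave -0.98 ± 0.43 (adjusted p = 0.122), TMSB10 0.29 ± 0.24 (adjusted p = 0.456) and ROCK2 probe ILMN_1659099 0.21 ± 0.14 (adjusted p = 0.321). With median centring the same number passed, beside 22% of all probes called lower. The members had been chosen from the enrichments that enter this difference, and a high one after control siRNA favours this direction. Their p-values are conditional on that choice and on leaving out replicate 2, which stood apart in these same data. The direction of ILMN_1777296 was fixed by the filter, as it was detected in HuR IPs after control siRNA alone. With quantile normalization of the 15 arrays it was the 1 probe past the threshold, at -0.61, beside 11.6% of all probes called lower, and ILMN_2038777 stood at 0.02.

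Other actin cytoskeleton genes were followed through a list of 156 genes in 6 groups by role. The array held 141 of them on 242 probes, of which 185 were detected on no array, and 13 probes of 12 genes could be tested. In HuR against IgG IPs after control siRNA 6 probes were higher and 1 was lower, with a median log2 difference of 0.49 and 8 probes at an unadjusted p under 0.05; among all probes 22.3% were higher, 5.42% lower and 35.2% at an unadjusted p under 0.05. With MIR100HG siRNA 3 were higher and none was lower, with a median of 0.30 and 4 at an unadjusted p under 0.05, beside 3.06%, 1.11% and 14.4% of all probes. All of these calls, and those of the siRNA comparisons below, were lost with median centring or no scaling of all 16 arrays. Few probes of any kind passed then: 0.834% of all were called higher after control siRNA in both settings, and after MIR100HG siRNA limma called 0, with 217 and 302 at an unadjusted p under 0.05. Without scaling the differences after control siRNA were 1.81 for CNN3 (adjusted p = 0.15) and 1.87 for PFN1 (adjusted p = 0.227). Of the 6 probes called higher after control siRNA, those of CNN3, CAPZA2 and ARPC5 and both of EZR were detected on HuR arrays alone, so the filter itself favoured that direction, and their p-values are conditional on it. Without replicate 2 of the HuR IPs after MIR100HG siRNA and without scaling, 10 of the 13 probes passed the filter. Of these 6 were higher in HuR IPs after control siRNA, those of TMSB4X, CAPZA2, CNN3 and PFN1 and both of EZR, beside 26.2% of all probes, while MYL12B gave -0.25 (adjusted p = 0.271) and ARPC5 was not tested.

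Of the proteins that bind actin monomers or filament ends, 5 genes of 21 on the array could be tested. PFN1, the profilin that feeds monomers to growing filaments, read 76, 732, 68 and 48 in HuR IPs after MIR100HG siRNA and 104, 139, 125 and 99 in HuR IPs after control siRNA, against 40 to 52 in IgG IPs after MIR100HG siRNA and 46 to 66 in IgG IPs after control siRNA. It was higher in HuR IPs by 1.47 ± 0.40 on the log2 scale after MIR100HG siRNA (limma adjusted p = 0.0483) and by 1.49 ± 0.40 after control siRNA (adjusted p = 0.0102); without replicate 2 the first was 0.83 (adjusted p = 0.144). It also lost its call after MIR100HG siRNA when any one of 14 of the 16 arrays was left out, with adjusted p up to 0.153. CAPZA2, a subunit of the protein that caps filament ends, was at least 1.46-fold higher in HuR IPs after control siRNA (adjusted p = 0.00162). It was detected on HuR arrays alone, so this p-value is conditional on the filter.

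TMSB4X, the thymosin most akin to TMSB10 in role, read 80, 1237, 98 and 55 in HuR IPs after MIR100HG siRNA and 252, 399, 460 and 188 in HuR IPs after control siRNA. It read 48, 48, 48 and 50 in IgG IPs after MIR100HG siRNA and 108, 97, 84 and 94 in IgG IPs after control siRNA, so the 4 groups differed in order from those of TMSB10. Against IgG IPs it was at least 3.18-fold higher in HuR IPs after MIR100HG siRNA (limma adjusted p = 0.0151). With control siRNA its log2 difference was 0.49 ± 0.45 (adjusted p = 0.534), although every HuR array was above every IgG array in deposited intensity; without scaling and without replicate 2 it was 2.10 (adjusted p = 1.19e-05). Within IgG IPs it was at least 5.57-fold lower after MIR100HG than after control siRNA (adjusted p = 9.16e-04). The enrichment after MIR100HG siRNA lost its call without replicate 1 (adjusted p = 0.0532) or replicate 3 (adjusted p = 0.0521) of the HuR IPs with that siRNA, and stood at 1.28 (adjusted p = 0.0496) without replicate 2.

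Of the nucleators, ARPC5, a subunit of the Arp complex that starts branched filaments, was the 1 gene of 26 on the array that could be tested, and was at least 1.22-fold higher in HuR IPs after control siRNA. It was detected on 4 arrays, all of HuR IPs, so no test is read from it. Among 4 tested genes of the myosin and tropomyosin group, CNN3, a calponin that binds filaments, was at least 2.15-fold higher in HuR IPs after control siRNA (limma adjusted p = 2.59e-04), and MYL12B, a regulatory light chain of nonmuscle myosin, was lower by -0.91 ± 0.18 (adjusted p = 0.00142) with mean intensities of 59.5 ± 5.92 in HuR and 65.3 ± 6.70 in IgG IPs (SD, n = 4 each). Of the crosslinkers and membrane linkers, both tested probes of EZR, which encodes ezrin, were higher in HuR IPs after control siRNA, at least 1.94-fold (ILMN_3272378, adjusted p = 9.86e-04) and at least 1.28-fold (ILMN_1795937, adjusted p = 0.00345). The first of them was also higher after MIR100HG siRNA, by 0.95 ± 0.26 (adjusted p = 0.0487; 0.56 and adjusted p = 0.11 without replicate 2), a call lost when any one of 14 arrays was left out. CNN3 and both EZR probes were detected on HuR arrays alone, so their p-values against IgG IPs are conditional on the filter. None of the 13 other actin isoform and actin-related genes on the array could be tested.

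With the siRNA, 2 of the 13 probes of the list were lower in HuR IPs, 2 were lower in IgG IPs and none was higher. In HuR IPs CAPZA2 differed by -0.69 ± 0.20 (limma adjusted p = 0.0351) and CNN3 by -0.80 ± 0.24 (adjusted p = 0.0447) on the normalized scale. With replicate 2 included their mean intensities ran the other way, at 84.5 ± 63.8 against 75.8 ± 16.3 for CAPZA2 and 136.5 ± 154 against 100.3 ± 22.6 for CNN3 (SD, n = 4 each). CAPZA2 was detected on the 4 HuR arrays after control siRNA and otherwise on replicate 2 alone. The filter thus favoured its lower value after MIR100HG siRNA, and its p-value is conditional on the filter. Without replicate 2 and without scaling CNN3 gave -1.40 (adjusted p = 1.21e-05) and CAPZA2 -1.03, and 6 of the list's probes were lower in all, beside 34.6% of all probes. CAPZA2 and EZR probe ILMN_1795937 were by then detected in HuR IPs after control siRNA alone, so the filter fixed their direction. CAPZA2 lost its call when any one of 7 arrays was left out (adjusted p of 0.0596 to 0.133) and CNN3 with any one of 15 (0.0509 to 0.168). In IgG IPs, beside TMSB4X, MYL12B was lower after MIR100HG siRNA by -1.02 ± 0.18 (adjusted p = 0.00262).

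**Figure D4:**
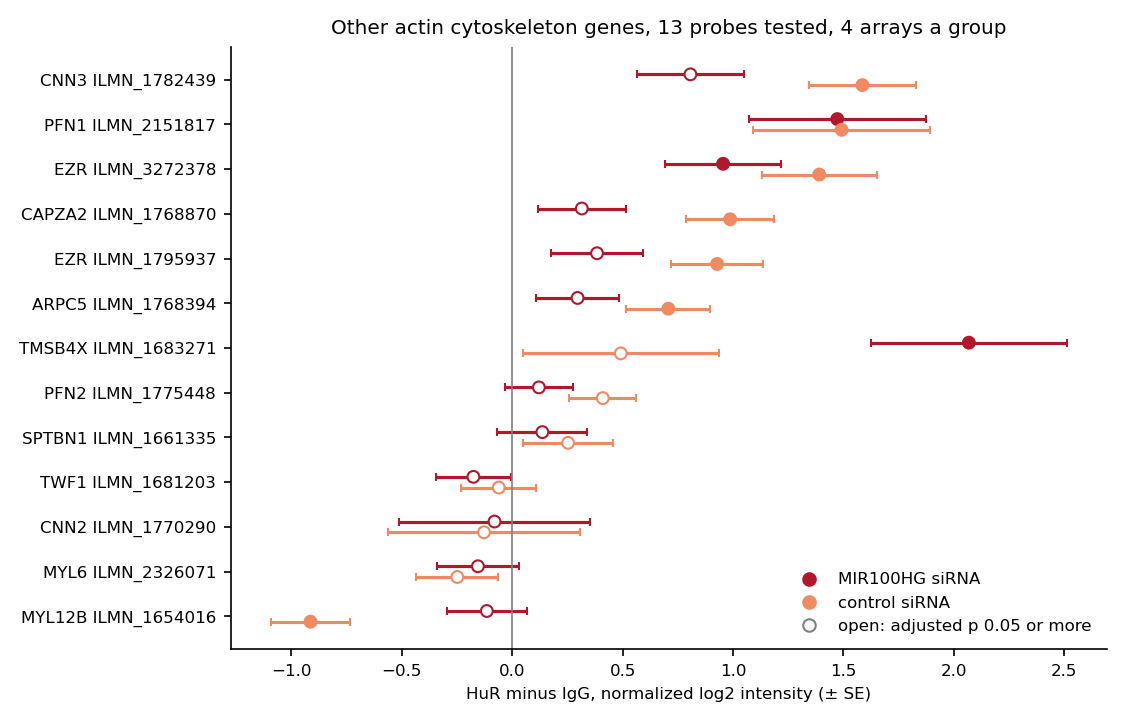
HuR minus IgG difference in normalized log2 intensity (horizontal axis, SE bars, 4 arrays a group) of the 13 tested probes of 12 other actin cytoskeleton genes, under MIR100HG and control siRNA. Filled points have an adjusted p under 0.05: 7 after control siRNA, from MYL12B at -0.91 to CNN3 at 1.59, and 3 after MIR100HG siRNA, the highest being TMSB4X at 2.07.

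The course of the bright POTEF probe over the 16 arrays was near those of the bright ACTB probes, and nearer still to those of some other genes named below. Likeness was measured as the root mean square of the difference of normalized log2 values after centring each probe on its own mean, where 0 is an identical course; the arrays and their normalization are common to all probes. ACTB probe ILMN_2038777 and POTEF differed by 0.59, ACTB probe ILMN_2152131 and POTEF by 0.62, POTEF and ROCK2 probe ILMN_2058337 by 0.65, and the 2 bright ACTB probes by 0.78. The measure also depends on the size of the changes, and each of the next pairs sets a bright probe against a dim one. The 2 ROCK2 probes differed from each other by 1.29, and ACTB probes ILMN_2038777 and ILMN_1777296 by 1.40. Leaving out replicate 2 of the HuR IPs after MIR100HG siRNA gave 0.59, 0.64, 0.66, 0.78, 1.24 and 1.37 in the same order.

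Of the 866 other named probes tested, those nearest to ACTB probe ILMN_2038777 were of PCBP2 (0.55), which encodes an RNA-binding protein, ITGB1 (0.65), an integrin subunit gene, CDH2 (0.65), the N-cadherin gene, CCND2 (0.67), a D-type cyclin gene, and AXL (0.74), a receptor kinase gene, against a median of 1.64 over all. POTEF had 4 of the same genes nearest, PCBP2 at 0.35, CCND2 at 0.36, ITGB1 at 0.42 and CDH2 at 0.45, followed by ALKBH5 at 0.61. The first 4 lay nearer to POTEF than either bright ACTB probe did, so its likeness to ACTB was not particular to ACTB. ROCK2 probe ILMN_2058337 was nearest to FARSB (0.24), CCR6 (0.27), RN7SL1 (0.30), AKR1D1 (0.40) and PFN1 (0.43). The other ROCK2 probe, ILMN_1659099, was not bright in HuR IPs. Whether ILMN_2058337 took up ROCK2 mRNA alone was not tested. ACTG1 and TMSB10 had other neighbours. For ACTG1 they were RPL13AP3 (0.39), ATP5F1EP2 (0.41), SNRPG (0.41), HSP90AA1 (0.41) and RPL23 (0.42), and for TMSB10 they were TPT1 (0.33) and the ribosomal protein genes RPL11 (0.34), RPLP1 (0.39), RPL31 (0.39) and RPS29 (0.40).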

How the data were processed

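Groups and replicate numbers came from the sample titles. The intensity values the authors deposited are linear bead averages for each probe, not scaled between arrays. GenomeStudio 2011.1 is named in the submitters' processing notes. Each has a deposited detection p-value, per the file headers. The deposited value table holds a score per probe and array, from its values a z-score, used as an alternative; the column of IgG IPs after MIR100HG siRNA, replicate 1, correlated with its own array at 0.0066 and was left out. The neqc function of limma 3.58.1 under R 4.3.3 corrected the background (offset 16) and set all arrays to common quantiles. The 1438 probes (3.04%) detected at 0.01 on 4 or more arrays were tested with lmFit and eBayes on 4 group means, and p-values were adjusted by Benjamini-Hochberg over all of them. Each probe stayed separate. Symbols were updated through gene identifiers, since POTEF carries ACTB as an older name. Members and lists were chosen with earlier results of these data known. List genes were named where they passed a HuR against IgG contrast, up to 8 each way. Other genes were named where they were among the 5 nearest in course to 1 tested probe of a member. That probe was the one with the highest mean normalized log2 value, which for ACTB was ILMN_2038777. Quantile normalization gives all arrays 1 distribution, which can hide or create differences where the amount of signal differs. Alternatives covered background, scaling, scores, filter, weights, trend, groups fitted, probes per gene, the replicate block and left-out arrays; quantile normalization on the log2 scale was added after seeing the data. The fit was tested on simulated data with independent normal noise, without outlying arrays or a signal floor, so that test does not cover these features. Figures were drawn with matplotlib 3.10.9. Probe sequences and coordinates were not used here.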

Additional observations from a re-analysis of the deposited data

Results flagged for a closer look

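In groups of 4 arrays a value was singled out by its gap to the nearest other array. The gap had to take up more of the group's range than Dixon's critical value allows. Chance does this in about 1 group in 20 where values are normal and groups independent. Groups here share arrays, and those of tested probes enter both before and after normalization, so their count cannot be set against that rate. Of 72 groups of member values, 15 held such a value, and 11 of them lay in HuR IPs after MIR100HG siRNA. Replicate 2 of that group was highest in deposited intensity for ACTB, at 2756 against 69 to 156 (ILMN_2038777) and 4382 against 61 to 184 (ILMN_2152131). It was likewise highest for ACTG1 at 163 against 44 to 47, POTEF at 1817 against 49 to 104, ROCK2 at 1164 against 54 to 77 (ILMN_2058337) and TMSB10 at 88 against 50 to 54. After quantile normalization its excess remained for ACTG1, at 5.209 against 4.16 to 4.209 on the log2 scale, and for TMSB10, at 4.764 against 4.277 to 4.335.

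Replicate 4 of the same group was lowest on the normalized scale for ACTB, at 6.735 against 8.397 to 8.484 (ILMN_2038777) and 4.976 against 8.918 to 9.035 (ILMN_2152131), and for POTEF at 4.251 against 7.259 to 7.862. The other 4 were small in size. ROCK2 probe ILMN_1659099 stood at 4.355 on the log2 scale in HuR IPs after control siRNA, replicate 4, against 4.433 to 4.442, and at 4.755 in IgG IPs after control siRNA, replicate 3, against 4.383 to 4.442. ACTB probe ILMN_1777296 stood at 4.144 in IgG IPs after control siRNA, replicate 1, against 4.277 to 4.278, and ROCK2 probe ILMN_2058337 had an intensity of 74 on that array, against 55 to 58.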

How the results depend on the processing

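With all arrays and quantile normalization, the calls among the 8 member probes were 1 for the siRNA in HuR IPs, 1 for the siRNA in IgG IPs and 0 for the change of enrichment; 4 probes exceeded 1 log2 unit in each HuR against IgG comparison; and the actin cytoskeleton list had 3 calls after MIR100HG siRNA, 7 after control siRNA, and 2 for the siRNA in each IP type. For the siRNA in HuR IPs the count was 3 with the deposited scores, 4 with array weights, 2 with an intensity trend, 2 with quantile normalization within each IP type, 0 with 1 probe per gene, and 7 and 8 without replicate 2 of the HuR IPs after MIR100HG siRNA with median centring and no scaling. For the siRNA in IgG IPs it was 2 with array weights and 0 with median centring, no scaling, normalization within IP type, scores, no filter, and only the groups compared. For the change of enrichment it was 1 with array weights, with a trend and within IP type, and 5 in both settings without replicate 2. Within IP type, 6 probes exceeded 1 log2 unit after control siRNA; the scores have no log2 unit and give no such count. Shares over all probes moved too: for the siRNA in HuR IPs 42.8% were called with array weights, 21.9% within IP type, 12.3% with a trend, 6.54% with scores and 9.23% with 1 probe per gene, against 10% in the fit as reported, and for the change of enrichment 15% with array weights, 3.62% within IP type and 0.974% with a trend. The 4 of 8 members and 6 of 13 list probes called with array weights are near that share. For the siRNA in IgG IPs 7.65% were called with array weights.

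The list's 7 calls after control siRNA became 0 with median centring or no scaling and 4 without a filter. Its 3 after MIR100HG siRNA became 0 with median centring, no scaling, scores, no filter, only the groups compared, and both settings without replicate 2. They became 1 without background correction and with detection on 2 arrays, and 2 with a trend and with the replicate block. Its 2 for the siRNA in HuR IPs became 0 with median centring, no scaling, no filter and only the groups compared, 1 without background correction, with detection on 2 arrays and with scores, and 6 with array weights and in both settings without replicate 2. Its 2 in IgG IPs became 0 with median centring, no scaling, within IP type and with scores. With each array left out, the ranges were 0 to 3, 1 to 3 and 0 to 1 for the members' siRNA and enrichment calls, 0 to 4 and 6 to 8 for the list after MIR100HG and control siRNA, 0 to 4 for its siRNA calls in HuR IPs and 2 to 2 in IgG IPs.

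The change of enrichment of ACTB probe ILMN_2038777 turned sign, to -0.95 with median centring, -0.91 without scaling, -0.32 within IP type, -7.61 in score units, and -2.23 and -2.20 without replicate 2; that of ROCK2 probe ILMN_2058337 turned to 0.0948 with quantile normalization on the log2 scale, a setting chosen after seeing the data. With arrays left out, that of ACTB probe ILMN_2152131 ran from -0.80 to 0.59, of ACTG1 from -0.39 to 0.22 and of ROCK2 probe ILMN_2058337 from -0.29 to 0.55. The cause was not tested. Samples of the same replicate number deviated together weakly at most (24 pairs, correlations of -0.157 to 0.269, 4 over 0.1). In IgG IPs after MIR100HG siRNA the IP numbers in the labels do not follow the replicate numbers. Replicate numbers may therefore not mark a pairing. With the replicate block TMSB10 stood at -1.34 in IgG IPs (limma adjusted p = 0.0113) and ACTB probe ILMN_1777296 at -0.89 in HuR IPs (adjusted p = 0.00348). Low signal limits all of this: 2 of 10 member probes and 185 of 242 list probes were detected on no array.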
